A study of Mus musculus with 2 samples.

Results

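The genes described here are the integrin chains, the laminin chains and the nidogens of the mouse. They were taken from the deposited expression table by their symbols (Itga and Itgb, Lama, Lamb and Lamc, Nid1 and Nid2) and by their annotation as protein-coding in GENCODE release M21. The rule found 39 of the 55536 genes in the table, namely 18 alpha integrins, 8 beta integrins, 11 laminin chains and 2 nidogens. RNA was sequenced from mammary tumors of MMTV-PyVT mice, in which a mouse mammary tumor virus promoter drives middle T antigen, a polyoma virus oncoprotein, in mammary epithelium. The DMSO group received the vehicle dimethyl sulfoxide and the C3G group received cyanidin-3-glucoside, a plant anthocyanin. Dosing started at the stage of ductal hyperplasia, and tumors were collected at a set tumor burden. Each group has 1 library, and the labels give no strain, age or number of mice behind it, so no value below has a replicate check and no test between the groups was possible. The effect of treatment cannot be told apart from a difference between individual tumors.

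Integrins are receptors made of 1 alpha and 1 beta chain that join the extracellular matrix, or a ligand on another cell, to the actin or keratin cytoskeleton. Laminins are trimers of an alpha, a beta and a gamma chain and form the first layer of a basement membrane, and nidogens bridge that layer to the collagen IV network. In the mammary gland the epithelium sits on such a membrane and holds to it mainly through beta1 integrins and through the alpha6 and beta4 pair of hemidesmosomes.

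The integrin, laminin and nidogen genes together stood at nearly the same level in the tumors. Their summed level was 998 TPM (the read share of a gene scaled for its length and to a fixed library total) in the DMSO tumor against 994 TPM in the C3G tumor. They held 26734 of 12192275 reads under DMSO and 35189 of 16081110 reads under C3G. Within that nearly equal sum, single chains differed in either direction. Itga8, Itgb8 and Lama4 were higher in the C3G tumor, and Itgb7 and Lamc3 were lower.

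The size rule took the log2 ratio as log2((C3G TPM + 1)/(DMSO TPM + 1)), which understates the change of low genes, and asked for at least 5 TPM in the higher library. Of the 39 genes, 27 reached that level, and 12 stayed below it in both tumors. At 2-fold, 2 of the 27 were lower and 0 higher, which is 7.41% of them, against 7.40% of 12780 genes of the whole table in either direction (4.30% lower and 3.10% higher). Among the 11005 protein-coding genes alone the background was 3.43% in either direction, 1.64% lower and 1.80% higher. At 1.5-fold, 3 were higher and 2 lower, or 18.5%, against 20.6% of all genes (11.5% higher, 9.15% lower) and 15.3% of protein-coding genes (10.3% higher, 5.05% lower). At 1.5-fold the share lies near both backgrounds. At 2-fold it lies near that of all genes but above that of protein-coding genes, and it rests on 2 genes. These shares are no result about the family. Centred on genes with a mean of at least 10 TPM, 38.3% of the 1.5-fold calls over all genes were upward in place of 55.6%, and at 2-fold 31.0% in place of 41.9%. With the length and GC trends removed, 53.7% of the 2-fold calls were upward. No outcome here has a p-value, because genes of 1 pair of libraries are not replicates.

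The median log2 ratio was -0.01 over the 38 family genes with a mean of at least 1 TPM, 18 of them above 0 and 20 below. The median was 0.10 over the 17468 genes of the table that reached the same mean and 0.14 over the 13232 protein-coding genes among them. Alpha integrins had a median of 0.05 (11 of 17 above 0), beta integrins -0.12 (2 of 8 above 0) and laminins with nidogens -0.02 (5 of 13 above 0). Centred on genes with a mean of 10 TPM, the alpha integrin median turned to -0.07. Family genes are long, with a median exon length of 6979 bases against 3401 over all genes, and longer genes had higher ratios in these libraries. Genes in the longest eighth, above 8144 bases, had a median of 0.20, and 12 of the 38 family genes are in it.

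Each fold below has an exact conditional 95% interval in parentheses, computed from reads recovered from the TPM values, and it covers counting error only. Of 38 genes with reads in both libraries, 10 had an interval above 1, 11 an interval below 1 and 17 an interval that included 1. Over 16977 genes of the table with a mean of at least 1 TPM and reads in both libraries, 35.2% had an interval above 1 and 18.6% below 1.

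**Figure D1:**
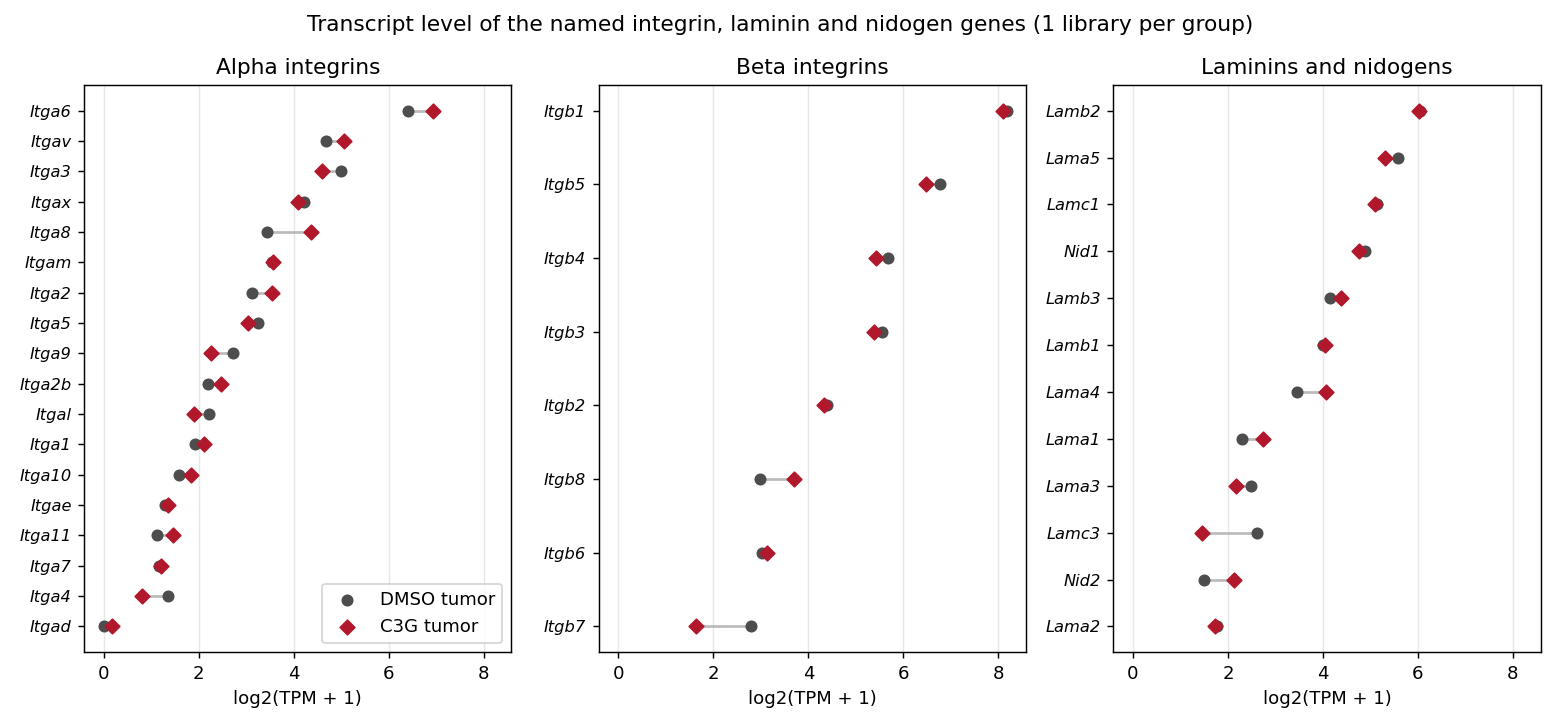
Level of each named gene as log2(TPM + 1) on the horizontal axis, with a grey circle for the DMSO tumor, a red diamond for the C3G tumor and a line joining them, genes ordered by mean level within each role. Itgb1, Itgb5 and Itga6 are the most abundant integrin chains, and Itga8, Itgb8, Itgb7, Lama4 and Lamc3 have long joining lines.

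The promoter windows of chains past 1.5-fold are shown here because they are the regulatory sequence next to the genes with the largest differences. RefSeq windows of build GRCm38.p6, the same assembly as mm10, matched 24 of the 39 family genes and 3 of the 5 past 1.5-fold. Each runs from 250 bases before to 50 bases after the RefSeq start, 5′ to 3′ on the strand of the gene, and capitals mark CG dinucleotides. The Itga8 window is chr2:12301895-12302194, the Itgb8 window chr12:119238227-119238526 and the Itgb7 window chr15:102231886-102232185, all on the minus strand.
Itga8: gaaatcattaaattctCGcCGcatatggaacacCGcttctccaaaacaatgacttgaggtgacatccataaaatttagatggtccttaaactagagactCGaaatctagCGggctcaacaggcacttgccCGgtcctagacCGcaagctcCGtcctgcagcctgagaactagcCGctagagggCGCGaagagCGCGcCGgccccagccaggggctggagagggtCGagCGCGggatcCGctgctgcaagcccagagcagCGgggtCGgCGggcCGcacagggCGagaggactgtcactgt
Itgb8: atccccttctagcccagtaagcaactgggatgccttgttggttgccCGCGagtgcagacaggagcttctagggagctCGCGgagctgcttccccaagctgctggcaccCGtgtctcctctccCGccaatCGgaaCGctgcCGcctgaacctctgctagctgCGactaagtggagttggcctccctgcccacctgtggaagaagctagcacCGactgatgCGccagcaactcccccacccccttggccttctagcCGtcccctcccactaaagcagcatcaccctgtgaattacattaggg
Itgb7: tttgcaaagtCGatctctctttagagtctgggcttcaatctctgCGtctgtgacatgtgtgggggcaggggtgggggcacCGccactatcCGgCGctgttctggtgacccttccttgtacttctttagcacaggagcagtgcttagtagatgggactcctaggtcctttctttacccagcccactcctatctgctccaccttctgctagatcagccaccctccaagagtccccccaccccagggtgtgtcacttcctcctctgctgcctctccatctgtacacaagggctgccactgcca

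The Itga8 window holds 23 CG dinucleotides, the Itgb8 window 13 and the Itgb7 window 5. Over all 32851 RefSeq windows the median was 7, and 21.5% of them held at least 23, 37.9% at least 13 and 62.0% at least 5. None of the 3 windows holds the GC box GGGCGG on either strand, which 35.7% of all windows and 12 of the 24 family windows hold, nor the TATA box TATAAA, found in 13.6% of all windows and in 0 of the 24. The RefSeq start lies 22 bases from the GENCODE gene start for Itga8, 9 bases for Itgb7 and 526 bases for Itgb8, so the Itgb8 window lies inside the GENCODE gene. Promoter activity was not measured.

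Among the beta chains, Itgb1, the partner of most matrix-binding alpha chains, was by far the most abundant. It stood at 287 TPM in the DMSO tumor against 274 TPM in the C3G tumor, within the top 1.78% and 1.84% of protein-coding genes. Its fold was 0.954 (0.919 to 0.990), a difference of a few percent. Itgb1 made up 54.1% (53.4 to 54.8) of the summed beta chain TPM under DMSO and 56.4% (55.8 to 57.1) under C3G, with intervals from the exact Poisson limits of its own reads and the other chains held fixed.

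Itgb5, Itgb3, Itgb6 and Itgb8 are partners of the alpha chain Itgav in receptors for vitronectin, fibronectin and latent TGF-beta. Itgb5 stood at 108 TPM under DMSO and 87.6 TPM under C3G, 1.23-fold lower (1.15 to 1.31). Itgb3 stood at 46.0 and 40.8 TPM, 1.13-fold lower (1.04 to 1.22). Both of these abundant partners were a little lower in the C3G tumor.

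Itgb8, whose pair with Itgav activates latent TGF-beta, went the other way. It stood at 6.86 TPM under DMSO and 11.96 TPM under C3G, from 329 and 727 reads, 1.74-fold higher (1.53 to 1.99). With a pseudocount of 5 TPM its log2 ratio was 0.52 in place of 0.72, under the 1.5-fold rule. The gene lies on chromosome 12, 119158022 to 119238802. Itgb6, an epithelial chain with the same known activity towards latent TGF-beta, stood at 7.14 and 7.81 TPM, with an interval of the fold that included 1 (0.917 to 1.31). Its log2 ratio of 0.11 changed sign to -0.01 once length and GC trends were removed.

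Itgav itself stood at 24.7 TPM under DMSO and 32.5 TPM under C3G, 1.32-fold higher (1.22 to 1.42). Set against its partners, Itgav was at 0.229 of the Itgb5 level under DMSO and 0.371 under C3G, a 1.62-fold higher ratio (1.46 to 1.79). Against Itgb3 the ratio was 0.536 and 0.796. Against Itgb8 it was lower in the C3G tumor, at 2.72 in place of 3.60. These ratios between chains of 1 library do not depend on the scaling between libraries. They can depend on the trends of length and GC. With those trends removed, the log2 ratio was 0.25 for Itgav in place of 0.38 and -0.24 for Itgb5 in place of -0.29.

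Itgb4, the chain that anchors hemidesmosomes to keratin, stood at 50.2 TPM under DMSO and 42.0 TPM under C3G, 1.19-fold lower (1.11 to 1.28). Its only known partner, Itga6, moved in the opposite direction. Itga6, a laminin receptor chain of basal and luminal cells on chromosome 2 (71745616 to 71858416), stood at 84.0 TPM under DMSO and 120 TPM under C3G, from 3287 and 5974 reads. The fold was 1.43 (1.37 to 1.497), under the 1.5-fold rule. The Itga6 log2 ratio of 0.51 was 0.43 with length and GC trends removed. Centred on genes with a mean of 10 TPM, it was 0.40.

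Itga6 was at 1.67 times the Itgb4 level in the DMSO tumor and 2.87 times in the C3G tumor, a 1.71-fold higher ratio (1.58 to 1.86). It also took a larger share of all alpha chains, 38.7% (37.9 to 39.6) under DMSO and 45.9% (45.3 to 46.5) under C3G. Itga6 can pair with Itgb1 as well as with Itgb4, and transcript levels do not say which pairs formed.

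Itga3, the other main laminin receptor of epithelium, which pairs with Itgb1, was lower in the C3G tumor. It stood at 30.9 TPM under DMSO and 23.1 TPM under C3G, 1.34-fold lower (1.21 to 1.48). Its share of the alpha chains was 14.2% and 8.79%. The Itga6 level was 2.72 times that of Itga3 under DMSO and 5.22 times under C3G, a 1.92-fold higher ratio (1.72 to 2.14). Itga7, a laminin receptor best known from muscle, was near the bottom of the list at 1.25 and 1.30 TPM.

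Itga8 had the highest log2 ratio of the family, at 0.91. This chain pairs with Itgb1 and is a receptor for nephronectin and other RGD proteins. It stood at 9.89 TPM under DMSO and 19.5 TPM under C3G, from 316 and 789 reads, 1.97-fold higher (1.73 to 2.25), just under the 2-fold rule. The gene lies on chromosome 2, 12106632 to 12301922. Its log2 ratio was 0.79 with length and GC trends removed and 0.72 with a pseudocount of 5 TPM. Exons of the antisense gene E030013I19Rik (4.90 TPM and 6.57 TPM) cover 5.05% of its exon bases, and libraries of this kind do not mark the strand. Npnt, which encodes nephronectin, stood at 117 and 177 TPM, 1.51-fold higher (1.44 to 1.58).

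**Figure D2:**
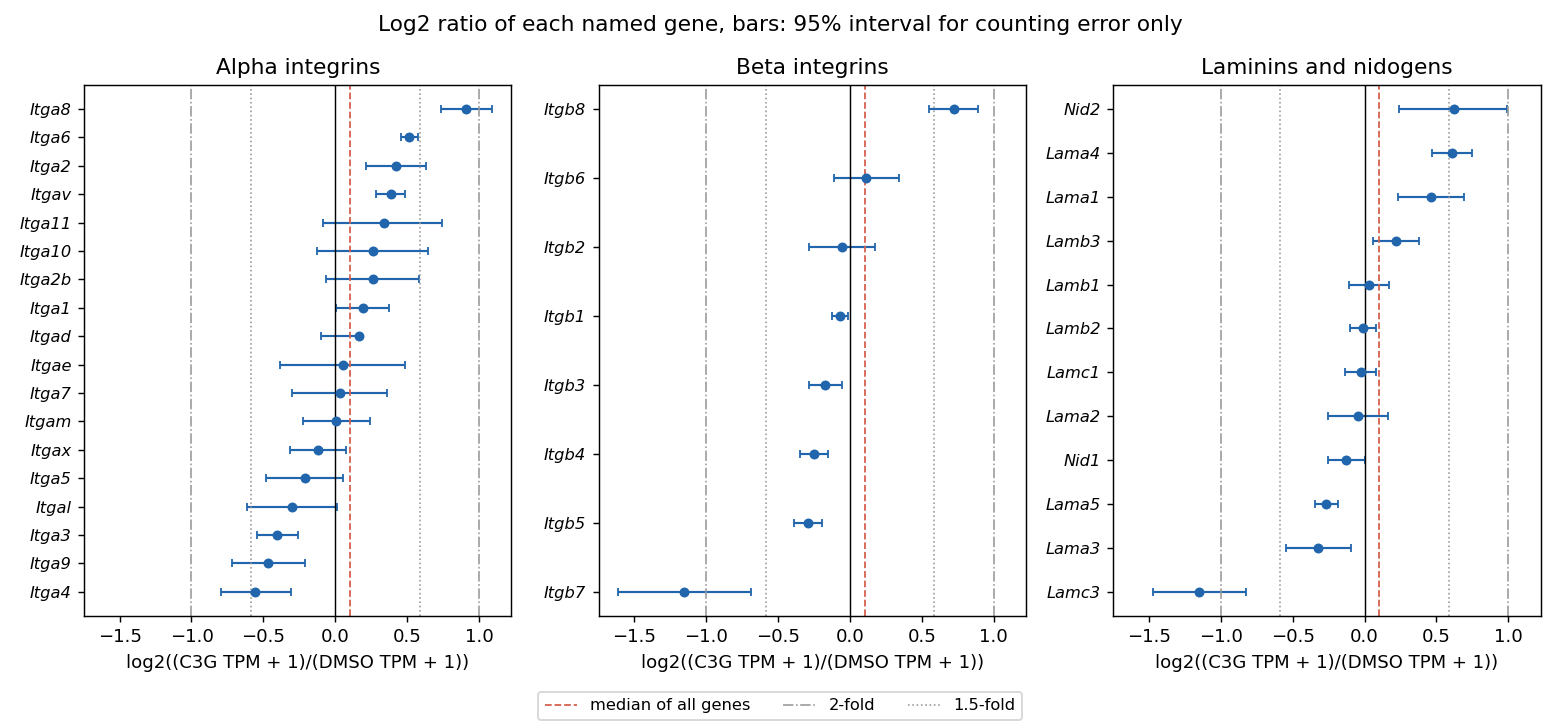
Log2 ratio of each named gene (horizontal axis) with the 95% interval for counting error as bars, the median of all genes as a dashed line and the 1.5-fold and 2-fold limits as dotted and dash-dotted lines. Itga8, Itgb8 and Lama4 lie to the right of the 1.5-fold line, as does Nid2 from fewer reads and below 5 TPM, and Itgb7 and Lamc3 lie to the left of the 2-fold line.

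Itga1, Itga2, Itga10 and Itga11 are the collagen-binding alpha chains, all partners of Itgb1. The 4 had log2 ratios above 0, between 0.19 and 0.42, but 2 of the 4 intervals included 1. Itga2, the chain of epithelium and platelets, stood at 7.66 TPM under DMSO and 10.6 TPM under C3G, 1.38-fold higher (1.18 to 1.63). Itga1 stood at 2.80 and 3.34 TPM, 1.19-fold higher (1.003 to 1.42).

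Itga10 stood at 2.00 and 2.60 TPM, with 33.5% of its exon bases also annotated to Gm42957. Itga11, a fibroblast chain, stood at 1.17 and 1.74 TPM, from 26 and 49 reads. The last 2 genes were too low for the size rule.

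Itga5, the classical fibronectin receptor chain, stood at 8.46 TPM under DMSO and 7.16 TPM under C3G, with an interval that included 1 (0.687 to 1.04). Itga9, which pairs with Itgb1 and binds tenascin-C and other ligands, stood at 5.61 TPM and 3.79 TPM, 1.48-fold lower (1.19 to 1.84). Fn1, the fibronectin gene, stood at 24.9 and 23.8 TPM.

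The chains of lymphocytes gave the lowest integrin ratio. Itgb7 pairs with Itga4 in the gut-homing receptor and with Itgae in the receptor that holds T cells to E-cadherin. It stood at 5.91 TPM under DMSO and 2.10 TPM under C3G, from 71 and 32 reads, 2.81-fold lower (1.83 to 4.41). The gene lies on chromosome 15, 102215995 to 102231944. With a pseudocount of 5 TPM its log2 ratio was -0.62 in place of -1.16.

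Itga4 stood at 1.57 TPM under DMSO and 0.742 TPM under C3G, 2.11-fold lower (1.505 to 2.99) from 95 and 57 reads, but below 5 TPM in both tumors. Of its exon bases, 8.04% are shared with Cerkl, which was at 0.218 TPM or less. Itgal, the alpha chain of the lymphocyte receptor for ICAM proteins, stood at 3.62 and 2.74 TPM, with an interval that included 1 (0.570 to 1.01). Itgae stood at 1.46 and 1.55 TPM from 29 and 39 reads, with an interval that included 1 (0.640 to 1.78), and its log2 ratio of 0.05 was -0.07 when centred on genes with a mean of 10 TPM. Of these 4 chains, Itgb7 and Itga4 had intervals below 1.

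T cell markers were lower in the same library. All 8 listed genes had log2 ratios below 0, and their summed level was 39.5 TPM under DMSO and 15.4 TPM under C3G. Only 3 of the 8 reached 5 TPM, of which 2 were past 2-fold. For B cells the sum was 75.8 and 16.5 TPM. Of the 6 genes, 2 reached 5 TPM, and these 2 were past 2-fold. The defining marker Ms4a1 was listed at 0 in 1 of the tumors and near 0 in the other. In bulk tissue, fewer cells of a type and less RNA per cell cannot be told apart. The part of these cells in the Itgb7 difference was not tested.

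Itgb2 and its partners Itgam, Itgax and Itgad form the integrins of myeloid cells. Itgb2 stood at 19.95 TPM under DMSO and 19.1 TPM under C3G, and its interval included 1 (0.813 to 1.13). Itgam stood at 10.7 and 10.8 TPM, with 68.7% of its exon bases also annotated to the overlapping gene Gm49368, which was listed at 0 in both libraries. Itgax stood at 17.5 and 16.1 TPM (fold 0.917, 0.795 to 1.06).

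Itgad had 0 reads under DMSO, where 3 reads would be 0.153 TPM, and 3 reads under C3G, at 0.121 TPM, so no fold is given. It was the only family gene with a mean below 1 TPM. The other 3 myeloid chains all had intervals that included 1. Macrophage markers were at 1809 TPM under DMSO and 1685 TPM under C3G in sum, with 0 of 7 genes past 1.5-fold. Neutrophil markers summed to 35.4 and 56.1 TPM, most of it S100a8 (28.9 and 50.3 TPM). Csf3r stood at 5.11 and 4.49 TPM, S100a9 at 1.33 and 1.05 TPM from 3 reads in each library. Mpo had 0 and 4 reads, and Ly6g and Retnlg were listed at 0 in both tumors.

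Itga2b, the alpha chain of the platelet fibrinogen receptor, stood at 3.59 TPM under DMSO and 4.505 TPM under C3G, with an interval that included 1 (0.948 to 1.66). Its platelet partner Itgb3 was far more abundant, as given above. Among the platelet markers Pf4 made up most of the summed 36.8 and 31.8 TPM. Gp9 was at 0.262 TPM under DMSO and at 0 under C3G, from 1 and 0 reads. Ppbp was at 1.06 and 0.168 TPM, from 5 and 1 reads. Gp1ba went the other way, at 1.10 and 1.74 TPM from 13 and 26 reads, with an interval that included 1 (0.782 to 3.34).

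Laminin alpha chains decide which receptors a laminin binds, and here their composition differed between the tumors. Lama5, the chain of the widespread epithelial and vascular laminins, was the most abundant. It stood at 46.6 TPM under DMSO and 38.6 TPM under C3G, 1.21-fold lower (1.14 to 1.28). Lama4, a chain of the basement membranes of blood vessels, fat cells and muscle, stood at 9.92 TPM under DMSO and 15.6 TPM under C3G, from 519 and 1037 reads. The fold was 1.58 (1.42 to 1.76). Lama4 lies on chromosome 10, 38965515 to 39110188.

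Lama5 made up 69.1% (68.2 to 70.0) of the laminin alpha TPM under DMSO and 58.7% (57.7 to 59.7) under C3G. The Lama4 share was 14.7% (13.6 to 15.8) and 23.8% (22.7 to 24.9). The Lama4 level was 0.213 of the Lama5 level under DMSO and 0.405 under C3G, a 1.90-fold higher ratio (1.69 to 2.14). The Lama4 log2 ratio of 0.61 was 0.53 with length and GC trends removed, 0.49 when centred on genes with a mean of 10 TPM and 0.47 with a pseudocount of 5 TPM, all under the 1.5-fold rule.

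Markers of blood vessels and fat cells were higher in the same library. The 8 endothelial markers summed to 35.5 TPM under DMSO and 92.0 TPM under C3G, and 8 of 8 were past 1.5-fold. The 8 adipocyte markers summed to 184 and 995 TPM. Of these, 7 reached 5 TPM and all 7 were past 1.5-fold. Pericyte markers summed to 60.5 and 74.6 TPM, and 5 of 6 had log2 ratios above 0. Only 3 of them reached 5 TPM, of which 1 was past 1.5-fold. The part of these cells in the Lama4 level was not tested.

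Lama1, the chain of the first laminin of the embryo, stood at 3.88 TPM under DMSO and 5.71 TPM under C3G, 1.47-fold higher (1.21 to 1.79). Lama2, the laminin chain of muscle and nerve sheaths, stood at 2.41 and 2.31 TPM, with an interval that included 1. Schwann cell markers summed to 469 and 466 TPM, with Pmp2 at 0 in both tumors, and skeletal muscle markers to 6.29 and 4.42 TPM, with Ckm at 0 in both.

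**Figure D3:**
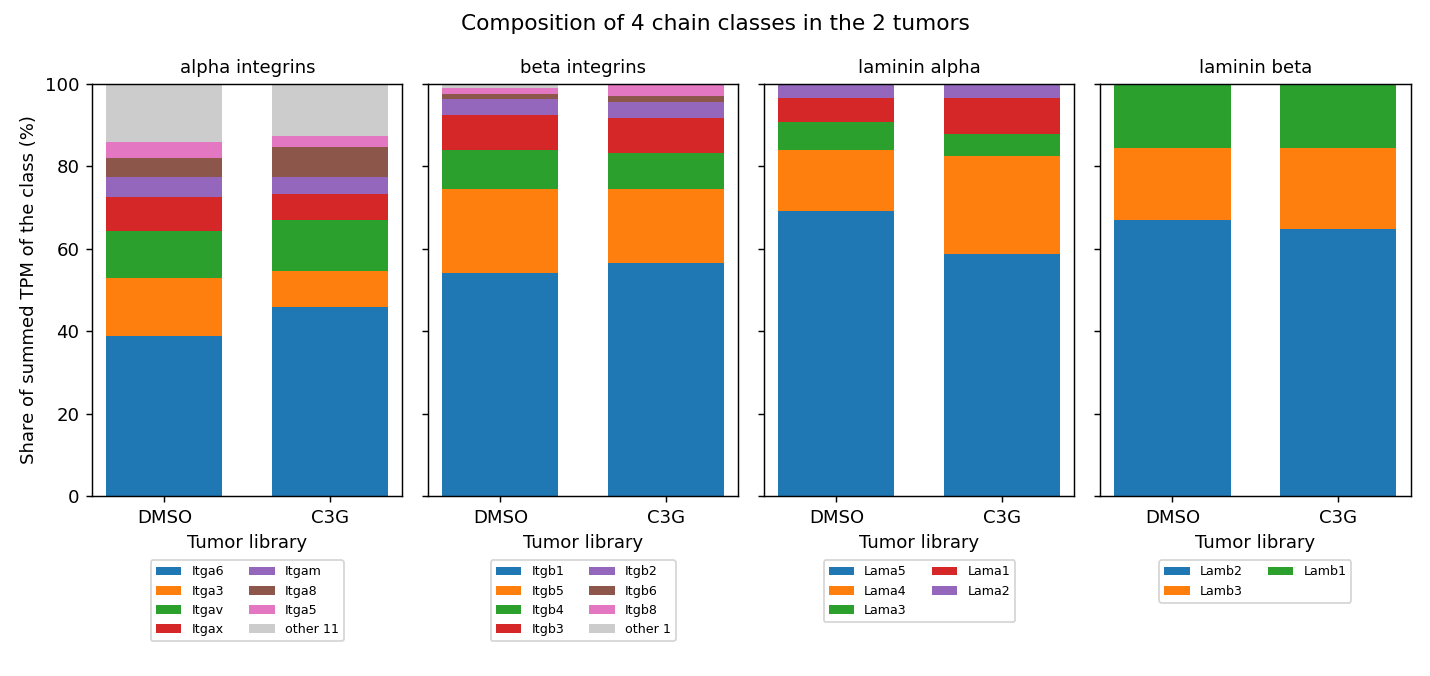
Stacked bars of the share (%) of each chain in the summed TPM of its class (alpha and beta integrins, laminin alpha and beta chains), for the DMSO and C3G libraries, with the 7 most abundant chains drawn singly and the rest in grey. Lama5 takes 69.1% of the laminin alpha bar under DMSO and 58.7% under C3G, Itga6 takes 38.7% and 45.9% of the alpha integrin bar, and Lamb2 takes 67.0% and 64.6% of the laminin beta bar.

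Lama3 and Lamb3 are chains of the laminin that hemidesmosomes bind. Lamb3 stood at 16.8 TPM under DMSO and 19.8 TPM under C3G, 1.18-fold higher (1.05 to 1.32). Lama3 was scarcer, at 4.62 TPM under DMSO and 3.49 TPM under C3G, 1.32-fold lower (1.09 to 1.61). These chains of 1 trimer therefore had log2 ratios of 0.22 (Lamb3) and -0.32 (Lama3). Lama3 was at 0.274 of the Lamb3 level under DMSO and 0.177 under C3G.

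Lamb1, Lamb2 and Lamc1 are the beta and gamma chains of most other laminins and had log2 ratios between -0.03 and 0.03. Lamb2 stood at 64.8 TPM under DMSO and 64.3 TPM under C3G (fold 0.992, 0.931 to 1.06). Lamc1 stood at 34.1 and 33.4 TPM (fold 0.981, 0.910 to 1.06). Lamb1 stood at 15.1 and 15.4 TPM (fold 1.02, 0.922 to 1.14). All 3 intervals included 1, and the Lamb1 to Lamb2 ratio was 0.232 and 0.240.

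Lamc3, the least abundant gamma chain, had the lowest ratio among the laminins. It stood at 5.07 TPM under DMSO and 1.73 TPM under C3G, from 134 and 58 reads, 2.93-fold lower (2.14 to 4.06). Lamc3 lies on chromosome 2, 31887291 to 31946539. Its share of the gamma chains was 9.15% (7.78 to 10.7) under DMSO and 3.38% (2.59 to 4.32) under C3G. The DMSO value lies just above the 5 TPM limit, and the log2 ratio of -1.15 was -0.58 with a pseudocount of 5 TPM, just short of 1.5-fold. The antisense gene Gm13441 covers 6.27% of its exon bases and was listed at 0 in both tumors.

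Nid1, the main nidogen, stood at 28.5 TPM under DMSO and 26.0 TPM under C3G, with an interval that just included 1 (0.833 to 1.002). Nid2 stood at 1.83 TPM under DMSO and 3.34 TPM under C3G, 1.83-fold higher (1.26 to 2.71), from 41 and 95 reads and below the 5 TPM limit. Nid1 was 15.6 times as abundant as Nid2 under DMSO and 7.79 times under C3G. Of the Nid2 exon bases, 8.45% are shared with Rtraf, a gene at 172 and 162 TPM.

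Some of the chains lie next to each other in the genome. Itgam, Itgax and Itgad lie in a row on chromosome 7, with gaps of 11.1 kb and 3.72 kb, and the intervals of Itgam and Itgax both included 1. Itga2 and Itga1 lie 20996 bases apart on chromosome 13, and both had intervals above 1. Chromosome 2 holds 7 of the family genes at wide spacing, among them Itga8 with the highest log2 ratio of the 39 and Lamc3 with one of the 2 lowest.

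Family genes also differed along their base composition. Spearman's correlation of the GC content of the longest transcript with the log2 ratio was -0.36 over the 38 genes, -0.18 over 13216 protein-coding genes and -0.10 over 17451 genes of the table. These are correlations across genes of the same 2 libraries, and genes are not independent replicates. The AT-rich Itgb8 (40.4% GC) and Itga8 (44.0% GC) had high ratios and the GC-rich Itgb7 (58.0%) and Lamc3 (58.4%) low ones. Going the other way, Itga4 (41.1%) was low and Nid2 (54.6%) was high, each below 5 TPM in both tumors. With the trends of length and GC over all genes removed, the correlation over the family was -0.31 and Itgb7, Lamc3, Itga8 and Itgb8 had log2 ratios of -1.06, -1.15, 0.79 and 0.59. The part of base composition in these ratios beyond that trend was not tested.

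**Figure D4:**
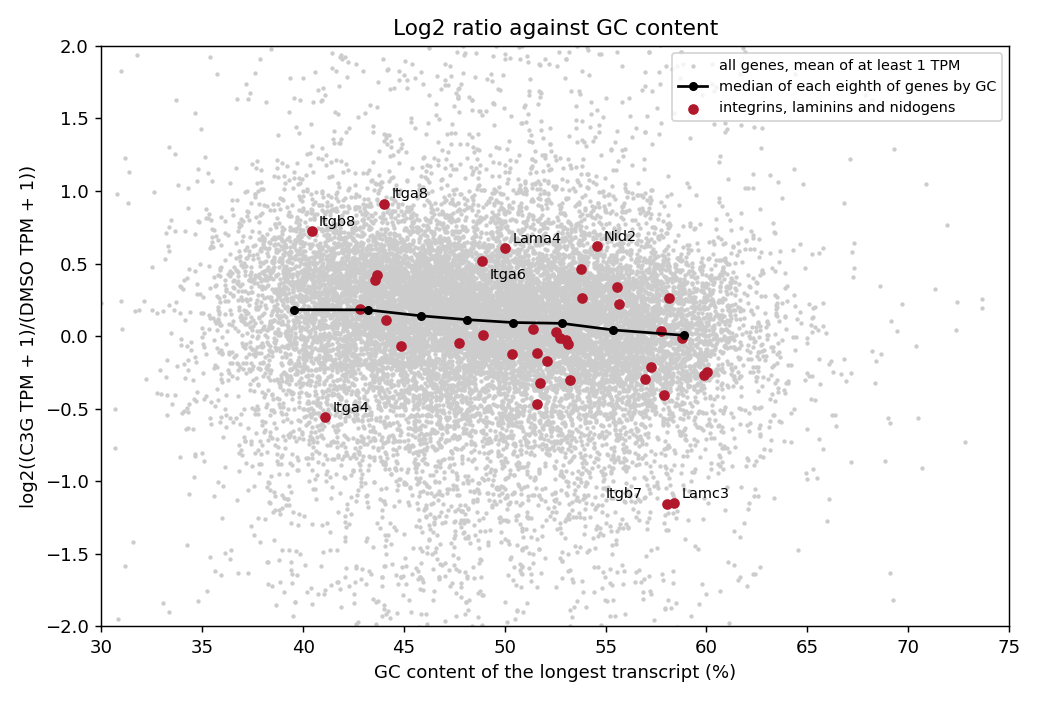
Log2 ratio (vertical axis) against the GC content of the longest transcript in percent (horizontal axis) for 17451 genes in grey, of which 404 lie outside the axes, with the median of each eighth of genes by GC in black and the 38 family genes in red. The black line declines from 0.18 to 0.01, and the red points of Itgb8, Itga8, Itgb7, Lamc3, Itga4, Nid2 and Lama4 are among those that lie away from it.

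Other genes of the same structures were described as lists. Of 22 further basement membrane genes, 1 was higher and 2 lower at 1.5-fold and 0 passed 2-fold, with a median log2 ratio of -0.06 over 19 of them. Col4a2, a main chain of collagen IV, stood at 99.5 TPM under DMSO and 53.6 TPM under C3G, 1.85-fold lower (1.75 to 1.97). Col4a1, its partner in the same trimer, stood at 152 and 104 TPM, 1.46-fold lower (1.40 to 1.52). Ntn4, a netrin that binds laminin gamma chains, stood at 100.4 and 51.5 TPM, 1.95-fold lower (1.80 to 2.11). Npnt, given above with its receptor chain Itga8, was the one higher.

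Of 25 integrin ligands, 2 were higher and 5 lower at 1.5-fold, 2 of them lower at 2-fold, with a median of -0.10 over 21 genes. The 2 were the fibrinogen chains Fgb, at 14.8 and 1.29 TPM, and Fgg, at 32.2 and 6.09 TPM, while Fga was listed at 0 in both tumors. Mfge8, an RGD protein of milk fat globules bound by Itgav pairs, stood at 421 and 268 TPM, 1.57-fold lower (1.52 to 1.62). Ccn2, a matricellular ligand, stood at 68.0 and 130 TPM, 1.91-fold higher (1.76 to 2.07). Cdh1, the E-cadherin that the Itgae and Itgb7 pair binds, stood at 353 and 336 TPM, and Madcam1, the gut ligand of the Itga4 and Itgb7 pair, at 0.321 and 0 TPM.

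Focal adhesion proteins join integrins to actin inside the cell. Of 29 focal adhesion genes, 1 was higher at 1.5-fold and 0 lower, with a median of -0.04 over 28. The one was Lims1, an adaptor of integrin-linked kinase, at 57.2 TPM under DMSO and 96.3 TPM under C3G, 1.68-fold higher (1.57 to 1.80). Ilk, that kinase, was below the 5 TPM limit at 0.168 and 1.72 TPM, from 2 and 26 reads, 10.3-fold higher (2.57 to 89.2). Its gene overlaps Rrp8 and Taf10 on the opposite strand, and these libraries do not mark the strand. The part of that overlap in the low Ilk level and in its fold was not tested. Fermt2, the kindlin that binds beta chain tails, stood at 88.2 and 117 TPM, Apbb1ip, an activator of leukocyte integrins, at 8.34 and 5.45 TPM, and Parvg, a parvin of blood cells, at 6.94 and 4.71 TPM.

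Of 6 hemidesmosome genes none passed 1.5-fold, and their median was -0.12. Col17a1, the transmembrane collagen that joins the Itga6 and Itgb4 pair, stood at 7.71 and 11.4 TPM, and Plec, which ties Itgb4 to keratin, at 29.4 and 24.8 TPM. Krt5 and Krt14, the keratins attached there, stood at 36.2 and 48.4 TPM and at 83.7 and 66.0 TPM. Of 10 membrane partners of integrins none passed 1.5-fold (median -0.09), with the tetraspanins Cd9 at 499 and 603 TPM, Cd63 at 190 and 161 TPM and Cd82 at 101 and 118 TPM, and the thrombospondin receptor Cd47 at 63.9 and 51.3 TPM.

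Epithelial markers of the labelled tissue were abundant in both tumors. Luminal epithelial markers summed to 7502 TPM under DMSO and 5465 TPM under C3G, with 1 of 8 genes higher and 3 lower at 1.5-fold. Prom1 was the higher one, at 31.8 and 53.7 TPM, Elf5 had a log2 ratio of 0.08, and the other 6 were below 0. Of those 6, Epcam and Cdh1 were nearly level, with log2 ratios of -0.09 and -0.07. Basal and myoepithelial markers summed to 1118 and 577 TPM, with 4 of 8 lower at 1.5-fold. Most of that sum was Acta2, at 712 and 318 TPM. Krt5 and Trp63 went the other way, with log2 ratios of 0.41 and 0.29, and the other 6 were below 0. Fibroblast markers summed to 1273 and 1068 TPM, with 0 of 7 past 1.5-fold. Ribosomal RNA genes took 0.600% of reads under DMSO and 1.06% under C3G. The part of these differences in the levels of the epithelial chains Itga6, Itga3 and Itgb4 was not tested.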

How the data were processed

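Per the labels' protocols, tumor RNA came from RNeasy Plus kits and was prepared for sequencing by the TruSeq RNA Library Prep Kit v2, which is known to enrich poly(A) RNA and to lose strand information. FastQC, MultiQC, Trimmomatic 0.38 and featureCounts 2.0.0 and the build mm10 are named in the submitters' processing notes. The aligner and the treatment of reads that map to several genes are not given in the sources used here. The authors deposited 1 column of TPM per library, each summing to 1000000.

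All 55536 identifiers matched GENCODE M21, which gave symbols, positions and exon lengths. TPM times exon length was a whole multiple of 1 step for 100% of values above 0 (tolerance 0.01 of a step), and 1 step was taken as 1 read. This gave 12192275 reads for DMSO and 16081110 for C3G, used only for intervals, floors (3 reads), read counts and read shares. No count test was run, because each group has 1 library. Log2 ratios used a pseudocount of 1 TPM, medians a mean of at least 1 TPM, and calls a higher level of at least 5 TPM. Intervals of folds are exact and conditional on the reads of a gene, and intervals of ratios between 2 chains use a normal approximation on the log scale. All cover counting error only, since the labels name no molecular identifiers and copies of 1 molecule can be counted repeatedly. The ratio and interval code was tested on simulated data.

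The family and the lists were chosen with earlier results of these data known, and the chain pairs set against each other were picked after their values were seen. Family genes are named one by one, except 1 that counts in the sums and medians and is not reported here. In each list the up to 4 genes with the largest log2 ratio in size and at least 5 TPM are named, and Fn1, Cdh1, Madcam1 and Fga were added as ligands or listed zeros, and Ilk after its values were seen. Markers were summarised, with single genes given where low, at 0, most of a sum or opposite to it in direction. The list symbols Cyr61 and Ctgf were matched through RefSeq synonyms. Trends of length and GC were fitted by lowess (span 0.3, statsmodels 0.14.6) over genes with a mean of at least 1 TPM. Other tools were Python 3.11.15, pandas 2.3.3 and scipy 1.17.1.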

Additional observations from a re-analysis of the deposited data

How the results depend on the processing

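The alternatives changed 1 choice at a time. The count of family genes lower at 2-fold (2) was 0 with a pseudocount of 5 TPM and 0 with the stricter filter (a higher level of 20 TPM), which leaves fewer genes. At 1.5-fold, the 3 higher became 1 with that pseudocount and 0 with that filter, and the 2 lower became 1 and 0. Centred on genes with a mean of 10 TPM, a shift of 0.12, the median of alpha integrins turned from 0.05 to -0.07, that of laminins and nidogens was -0.14 and that of hemidesmosome genes -0.24. The cause of these moves beyond the settings themselves was not tested.

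For the other basement membrane genes at 1.5-fold, the 1 higher gene became 0 with a pseudocount of 5, 0 when centred and 0 with length and GC trends removed, and the 2 lower became 6 when centred. For integrin ligands, the 2 higher became 1 under those same 3 settings, and the 5 lower became 3 with the stricter filter and 3 with trends removed. For focal adhesion genes, the 1 higher became 2 with no filter, and the 0 lower became 1 with a pseudocount of 0.1, 2 when centred and 1 with trends removed.

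As shares of reads rather than of TPM, Itga6 took 44.6% and 50.8% of the alpha chains in the DMSO and C3G tumors, Itgb1 49.2% and 50.4% of the beta chains, and Lamc3 6.96% and 2.53% of the gamma chains. Over 6 scalings and pseudocounts 34 of the 39 genes kept the sign of their log2 ratio. The 5 that did not were Itgb6, Itgam, Itga7, Itgae and Lamb1, all within 0.13 of 0. No paired analysis was possible because each group has 1 library. Depth limits the low chains most, such as Itga11 and Itgae, with fewer than 50 reads in each library.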
